A study of Mus musculus with 16 samples.

Results

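The EGF family ligands and their receptors were described as 10 of the 52525 genes that all 3 count tables of a Cul4b deletion series list. They are the ligands Egf, Tgfa, Hbegf, Btc, Areg and Ereg, the receptors Egfr, Erbb2 and Erbb3, and Lrig1, an inhibitor of these receptors. The members were picked by gene name and were chosen by results from the same libraries, so their differences between KO and WT are given as a description, with no test. RNA-seq was made from mouse small intestine of the C57BL/6 background. In the first experiment, crypts from 4 WT mice (Cul4b fn/Y) were set against crypts from 4 KO-IEC mice (pVillin-Cre; Cul4b fn/Y), in which Cre is expressed in the intestinal epithelium. The other two experiments used organoids, the epithelial cultures grown from crypts. In one, 2 WT and 2 KO-IEC organoid libraries were compared. In the other, 2 WT and 2 KO-CAG organoid libraries were compared (CAG-CreERT2; Cul4b fn/Y), where the CAG promoter is active in cells of all kinds and Cre was switched on in culture with 4-OHT. Floxed Cul4b was thus given for both arms of the crypt experiment. Whether the WT organoids of the KO-CAG experiment carried Cre or received 4-OHT is not given in the sources used here. Most mice of the study were 8 to 16 weeks old, and the Y in the genotype marks males. The study used a differentiation medium and an expansion medium, each with recombinant EGF at 50 ng/mL, Noggin and R-spondin 1. All organoids, WT and KO, were thus supplied with one of the ligands from outside. The expansion medium also held Wnt3a conditioned medium, and which medium the sequenced organoids were in is not given.

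The ligands of this family are made as membrane proteins, cut off by ADAM proteases and bound by ErbB receptors on the same or a neighbouring cell. EGF, TGF-alpha and amphiregulin bind EGFR, whereas HB-EGF, betacellulin and epiregulin also bind ERBB4. ERBB2 has no ligand of its own and ERBB3 has little kinase activity, so both work as partners in receptor pairs. LRIG1 promotes the loss of ErbB receptors from the cell and marks a stem cell population of the crypt. Signalling from the receptors runs through Ras and ERK, and ERK switches on its own inhibitors, among them the phosphatase DUSP6. In the intestine, EGF from Paneth cells drives stem cell division, and amphiregulin and epiregulin are known from epithelial repair.

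Total counts ran from 7348191 to 16881395 per library, and a level of 3 counts, taken as the floor, corresponded to 0.178 to 0.408 CPM, a gene's reads scaled to a library of fixed size, which covers counting error only. Cul4b itself was lower in every KO library: 31.7 to 38.3 CPM in WT against 0.848 to 2.21 in KO-IEC crypts, 73.2 to 83.2 against 1.69 to 1.76 in KO-IEC organoids, and 70.1 to 72.9 against 3.34 to 5.19 in KO-CAG organoids. Some crypt libraries stood apart. The mitochondrial ribosomal RNAs mt-Rnr1 and mt-Rnr2 summed to 2840 and 2873 CPM in WT 2 and WT 3, to 834 and 1078 CPM in WT 4 and KO 4, and to 18.9 to 25.2 CPM in WT 1 and KO 1 to KO 3. KO 3 also had the lowest summed level of the 6 Paneth cell markers, 1697 CPM against 6838 to 16937 in the other 7 crypt libraries, and the highest summed level of the 6 leukocyte markers, 281 CPM against 19.9 to 153. Crypt values of the members are therefore also given without KO 3 or within classes of libraries with like mt-Rnr1 and mt-Rnr2.

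Areg, Ereg and Btc lie in 1 stretch of mouse chromosome 5 (GRCm38), and the promoter of Areg holds a CRE and a TATA match that the promoters of Btc and Tgfa lack. The stretch of 375531 bases from Epgn to Btc holds 7 genes of the tables: Epgn (91027464 to 91035215, + strand), Gm19610, Ereg (91074622 to 91093646, +), Areg (91139599 to 91148432, +), Gm23092, Gm19619 and Btc (91357261 to 91402994, - strand). Epgn, which codes for the ligand epigen, had 0 to 4 counts in every library and was not tested. The other members lie elsewhere: Egf at chr3:129677565-129755316, Tgfa at chr6:86195223-86275719, Lrig1 at chr6:94604529-94700158, Erbb3 at chr10:128567523-128589652, Egfr at chr11:16752203-16918158 and Erbb2 at chr11:98412470-98437716, and the position of Hbegf is given with its values. All 10 are protein-coding genes. RefSeq promoter entries on GRCm38.p6 were matched for Egf, Tgfa, Btc, Areg, Egfr, Erbb2 and Lrig1, and not for Hbegf, Ereg or Erbb3. The 250 bases before the RefSeq start are shown for Areg and Btc, the cluster members with an entry, and for Tgfa, the ligand that was higher in KO in all 3 experiments. They lie at chr5:91139349-91139598 (+ strand), chr5:91402995-91403244 (- strand) and chr6:86194972-86195221 (+ strand), and are written 5′ to 3′ on the strand of the gene. Capitals mark matches to 6 motifs searched on both strands. The CRE, or cAMP response element, was searched as TGACGTCA. AP-1, the site of Fos and Jun proteins, was searched as TGANTCA. The site of TEAD factors, partners of YAP, was searched as GGAATG. TCF, the site of the Wnt effectors, was searched as CTTTGNT. The GC box, bound by Sp1, was searched as GGGCGG. The TATA box was searched as TATAAA.
Areg: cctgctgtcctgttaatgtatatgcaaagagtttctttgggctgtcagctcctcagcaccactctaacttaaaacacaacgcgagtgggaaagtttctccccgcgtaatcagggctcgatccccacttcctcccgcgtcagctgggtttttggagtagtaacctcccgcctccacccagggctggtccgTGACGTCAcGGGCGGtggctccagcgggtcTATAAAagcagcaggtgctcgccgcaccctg
Btc: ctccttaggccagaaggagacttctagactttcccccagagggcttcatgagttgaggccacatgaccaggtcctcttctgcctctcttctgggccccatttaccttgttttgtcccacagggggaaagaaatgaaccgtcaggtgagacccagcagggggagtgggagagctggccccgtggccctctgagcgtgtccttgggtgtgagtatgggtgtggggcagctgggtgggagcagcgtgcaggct
Tgfa: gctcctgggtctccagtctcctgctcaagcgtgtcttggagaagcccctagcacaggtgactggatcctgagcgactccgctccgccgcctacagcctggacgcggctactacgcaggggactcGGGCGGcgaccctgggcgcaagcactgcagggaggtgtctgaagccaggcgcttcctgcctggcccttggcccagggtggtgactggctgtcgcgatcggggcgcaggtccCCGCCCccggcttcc
The Areg promoter held a full cAMP response element from 61 to 54 bases before the start, a GC box from 52 to 47 and a TATA match from 31 to 26. A CRE match was present in 1.55% of the 32851 promoters of the same length, a GC box in 32.7% and a TATA match in 12.4%. Tgfa had 2 GC boxes, at 126 to 121 and 15 to 10 bases, and Btc had 0 matches. GC content was 57.2% for Areg, 59.6% for Btc and 69.2% for Tgfa. A match is only a match of letters in this window.

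In WT samples the receptors Erbb3 and Erbb2 and the inhibitor Lrig1 were the most abundant members, and Egf and Ereg the least, when CPM were divided by gene length. In WT crypts the level was 55.2 ± 3.50 CPM per kb for Erbb3 (SD, n = 4), 36.9 ± 5.67 for Erbb2 and 26.5 ± 2.70 for Lrig1. Hbegf led the ligands at 6.08 ± 1.92, and Egfr followed at 3.50 ± 0.26 and Tgfa at 3.12 ± 0.23. Areg stood at 1.34 ± 0.77, Btc at 1.14 ± 0.19, Ereg at 0.337 ± 0.209 and Egf at 0.180 ± 0.0367. The ranges of Egfr and Tgfa overlapped in WT crypts, as did those of Areg and Btc and those of Ereg and Egf, so these neighbours did not differ beyond their spread. Erbb3 lay above 91.9% of the genes tested in the crypts on this scale and Egf above 1.43%.

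The order of the ligands was another one in the organoids, where Areg came first among them. Its level per kb was 24.7 ± 2.73 (SD, n = 2) in the WT organoids of the KO-IEC experiment, behind Lrig1 (44.4 ± 1.51), Erbb3 (40.6 ± 2.33) and Erbb2 (29.5 ± 0.11). In the WT organoids of the KO-CAG experiment Areg had 15.4 ± 1.31, behind Erbb3 (71.7 ± 7.15), Lrig1 (65.3 ± 2.13) and Erbb2 (36.0 ± 1.31). Btc, Tgfa, Hbegf and Egfr lay between 2.73 and 5.51 CPM per kb in both sets of WT organoids, and Ereg and Egf between 0.0817 and 0.311. Ranges overlapped for Btc and Tgfa in the first set, and for Erbb3 and Lrig1 and for Egf and Ereg in the second. Whether the experiments were sequenced together is not given in the sources used here. Only the order within each is therefore given, not a difference of levels between them. Erbb4, which codes for the remaining receptor of the family, was at 0 to 0.283 CPM in every library and was not tested.

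Expressed as a share of the summed ligand mRNA per kb, Hbegf made up 34.5% to 58.9% in WT crypts and Areg 4.07% to 18.8%. In the KO-IEC crypts Areg made up 15.3% to 29.7% and Hbegf 35.5% to 73.0%, the latter being KO 3. In the organoids Areg was 61.2% and 65.0% of the sum in WT and 46.4% and 48.6% in KO-IEC. In the KO-CAG experiment it was 54.0% and 48.7% in WT and 79.0% and 78.0% in KO. The summed level in that experiment was 30.3 and 29.8 CPM per kb in WT against 140.8 and 110.2 in KO.

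**Figure D1:**
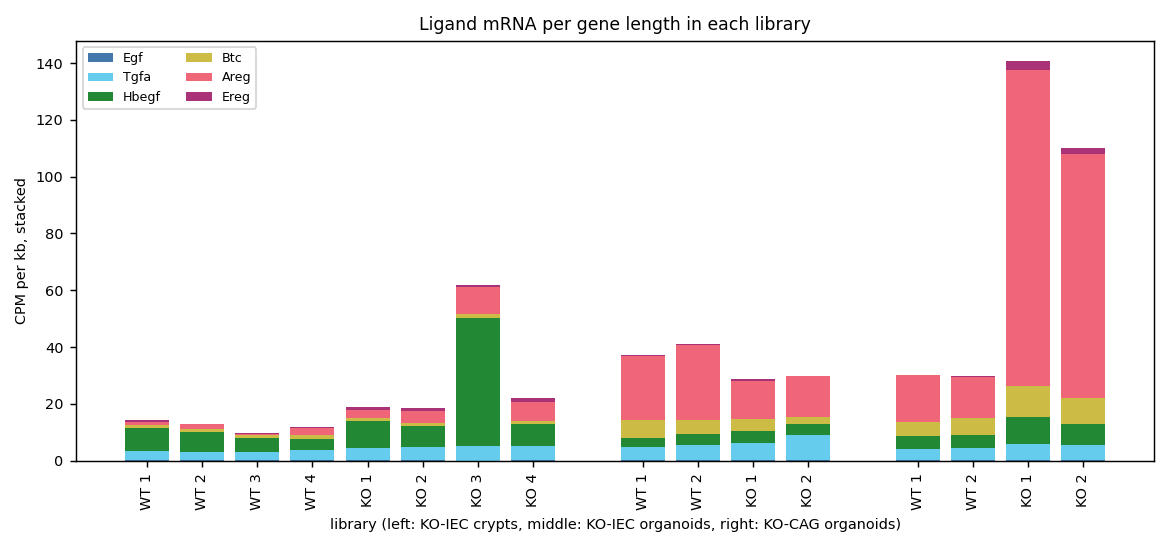
Stacked bars give the CPM per kb of the 6 ligands in each of the 16 libraries, with the crypts on the left, the KO-IEC organoids in the middle and the KO-CAG organoids on the right. Areg makes up 78.0% and 79.0% of the KO-CAG bars, and Hbegf makes up 73.0% of the bar of crypt library KO 3.

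In the KO-IEC crypts, 5 of the 6 ligands had a higher mean than in WT, led by Areg, Ereg and Hbegf, while the receptors stayed within 0.26 of WT on the log2 scale. The groups did not overlap for 2 of the 10 members, Areg and Tgfa, both higher in KO, beside 17.5% of all 13427 genes tested. The median log2 fold change of the members was 0.18, beside -0.01 over all genes tested. All 10 passed the filter on low counts, but Areg and Ereg passed through the KO libraries, since 3 and 2 of the 4 WT libraries reached the filter's level. Fewer cells of a kind and less RNA per cell cannot be told apart in such bulk samples.

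Areg, which codes for amphiregulin, had 1.43, 1.89, 0.480 and 2.73 CPM in WT 1 to WT 4 and 3.59, 5.04, 11.5 and 8.0 CPM in KO 1 to KO 4. Every KO library lay above every WT library, and KO 3 was the highest. The log2 fold change was 2.10 ± 0.50 (standard error), 4.27-fold, and it ran from 1.77 to 2.50 when single libraries were left out. Within the libraries low in mt-Rnr1 and mt-Rnr2 (WT 1 against KO 1 to KO 3) the difference was 1.92, and within the middle ones (WT 4 against KO 4) it was 1.49.

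Ereg, which codes for epiregulin, had 1.79, 0.566, 0.800 and 2.41 CPM in WT 1 to WT 4 and 4.12, 4.43, 2.23 and 6.16 CPM in KO 1 to KO 4. The groups overlapped because WT 4 lay above KO 3, and the counts behind these values were 6 to 30 in WT and 21 to 67 in KO. The log2 fold change was 1.59 ± 0.46, or 1.81 without KO 3, with 0.88 and 1.29 within the low and middle libraries. Ereg thus differed from Areg in KO 3, where Areg was highest and Ereg lowest among the KO libraries.

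Hbegf (chr18:36504929-36515805), the gene of heparin-binding EGF-like growth factor, had 19.8, 16.5, 11.6 and 9.81 CPM in WT and 22.3, 17.6, 107 and 18.7 CPM in KO 1 to KO 4. KO 3 stood far above the other 7 libraries, whose values lay between 9.81 and 22.3. The log2 fold change of 1.52 ± 0.59 became 0.45 ± 0.23 without KO 3, and WT and KO overlapped. Leukocyte markers were highest in this same library, as were summed goblet cell and enterocyte markers, and stem cell markers were lowest. Fos was also highest in KO 3, at 900 CPM against 93.9 to 426 in the other crypt libraries. Egr1 was at 257 CPM there, against 9.93 to 84.4. The part of these differences in the Hbegf value was not tested.

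Tgfa, the gene of TGF-alpha, had 20.5, 19.3, 18.9 and 22.3 CPM in WT and 27.6, 29.7, 33.2 and 32.1 CPM in KO. All 4 KO libraries lay above all 4 WT libraries. Its log2 fold change of 0.60 ± 0.10 was smaller than that of Areg and varied least among the ligands, from 0.56 to 0.67 when single libraries were left out. It was 0.55 and 0.52 within the low and middle libraries.

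Btc and Egf, the genes of betacellulin and of EGF, did not separate the groups. Btc was at 4.12 to 6.19 CPM in WT and 4.81 to 7.10 in KO (log2 fold change 0.09 ± 0.20), with the sign turning when KO 3 was left out (-0.05). Egf had 1.43, 2.36, 2.08 and 2.25 CPM in WT and 1.90, 1.45, 0.212 and 1.93 CPM in KO. The lowest value, in KO 3, rested on 2 counts, under the floor, and the log2 fold change was -0.55 ± 0.47, or -0.20 without KO 3. KO 3 was also the library with the lowest Paneth cell markers, whose part in the Egf value was not tested.

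The receptors overlapped between WT and KO-IEC crypts. Egfr was at 36.0 to 42.9 CPM in WT and 34.3 to 44.4 in KO (log2 fold change -0.02 ± 0.11). Erbb2 was at 172 to 236 CPM in WT and 166 to 235 in KO (0.11 ± 0.15), and Erbb3 at 313 to 358 and 308 to 500 (0.26 ± 0.15). Lrig1 had 140, 164, 157 and 131 CPM in WT and 143, 130, 97.3 and 105 CPM in KO. Its log2 fold change was -0.32 ± 0.14 and stayed negative in every leave-one-out fit (-0.42 to -0.22), although KO 1 lay among the WT values. Without KO 3 the values were 0.03 for Egfr, 0.06 for Erbb2 and 0.14 for Erbb3. Within the low and middle libraries they were 0.17 and -0.24 for Egfr, -0.10 and -0.05 for Erbb2 and 0.24 and -0.04 for Erbb3. The signs of Egfr and Erbb2 turned under at least 1 of the alternative settings.

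**Figure D2:**
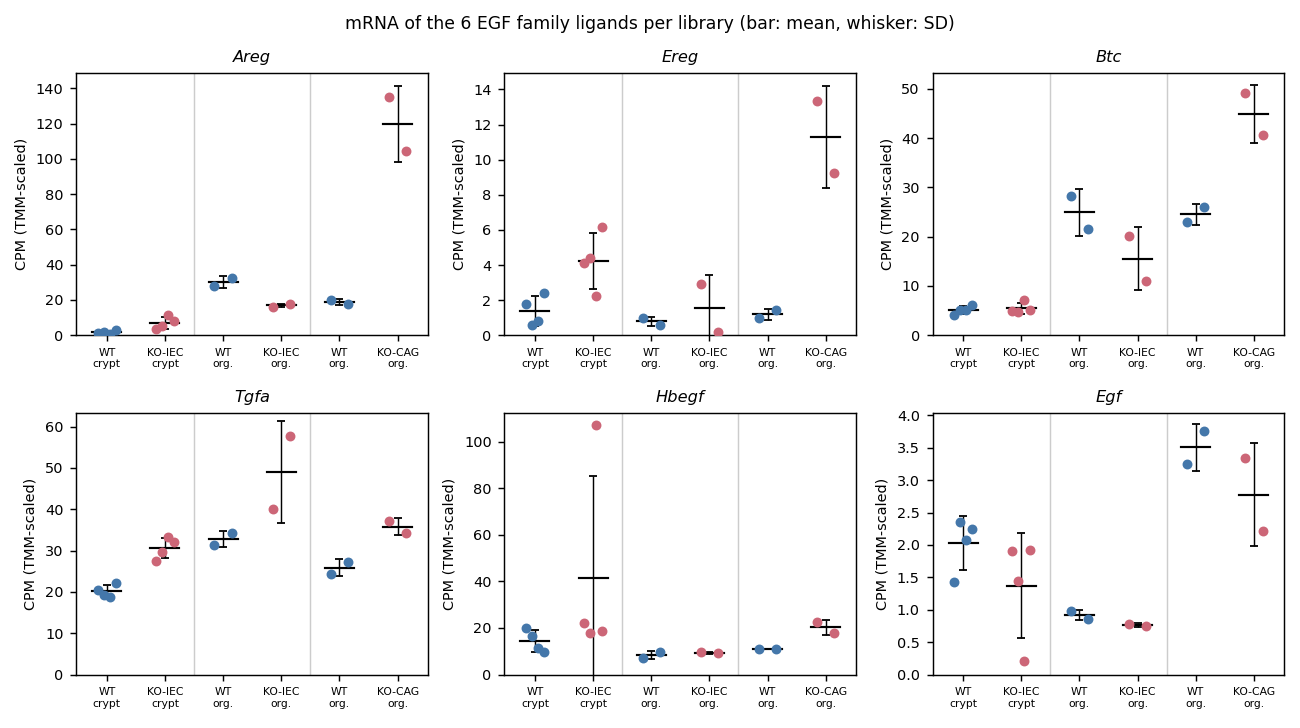
Points are TMM-scaled CPM of 6 ligand genes in each of the 16 libraries, WT in blue and KO in red, with the mean and SD of each group, and every axis starts at 0. Areg is highest in the 2 KO-CAG organoid libraries, at 135 and 104 CPM, and Hbegf in crypt library KO 3, at 107 CPM.

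In the KO-IEC organoids the ligands divided: Areg and Btc were lower than in WT and Tgfa was higher. Groups did not overlap for 7 of the 10 members, 3 higher and 4 lower, beside 38.9% of all 13938 genes tested, so with 2 libraries a group such a gap was common. The members' median log2 fold change was 0.03, beside -0.01 over all genes tested.

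Areg had 27.7 and 32.4 CPM in WT 1 and WT 2 and 16.3 and 17.6 CPM in KO 1 and KO 2. Both KO libraries lay below both WT libraries, the opposite of the crypts. The log2 fold change was -0.83 ± 0.21 and ran from -0.94 to -0.72 when single libraries were left out. Btc had 28.3 and 21.5 CPM in WT and 20.1 and 11.0 CPM in KO, a log2 fold change of -0.68 ± 0.36. KO 2 was the lower of the KO libraries for Btc, and the value was -1.18 without KO 1 and -0.31 without KO 2.

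Tgfa had 31.4 and 34.2 CPM in WT and 40.2 and 57.7 CPM in KO (log2 fold change 0.57 ± 0.24), without overlap, and the value was 0.29 without KO 2. Hbegf had 7.20 and 9.69 CPM in WT and 9.70 and 9.12 CPM in KO (0.16 ± 0.29), and the groups overlapped. Egf had 0.979 and 0.863 CPM in WT and 0.783 and 0.743 CPM in KO (-0.27 ± 0.48). The Egf groups did not overlap but rested on 11 to 17 counts, and the difference was smaller than its standard error. Ereg had 0.979 and 0.597 CPM in WT and 2.89 and 0.203 CPM in KO. The 2 KO libraries lay on either side of the WT ones, KO 2 with 3 counts, and the log2 fold change of 0.97 ± 1.14 turned to -1.93 without KO 1.

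Among the receptors, Erbb3 had 234 and 254 CPM in WT and 313 and 449 CPM in KO-IEC organoids (log2 fold change 0.64 ± 0.23, or 0.36 without KO 2). Erbb2 had 153 and 154 CPM in WT and 161 and 298 CPM in KO (0.58 ± 0.32), a difference that KO 2 carried, since it was 0.07 without it. Egfr had 30.1 and 31.7 CPM in WT and 35.2 and 22.2 CPM in KO (-0.10 ± 0.28), with the KO libraries on both sides of WT. Lrig1 had 242 and 254 CPM in WT and 190 and 157 CPM in KO, both lower (-0.52 ± 0.18).

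**Figure D3:**
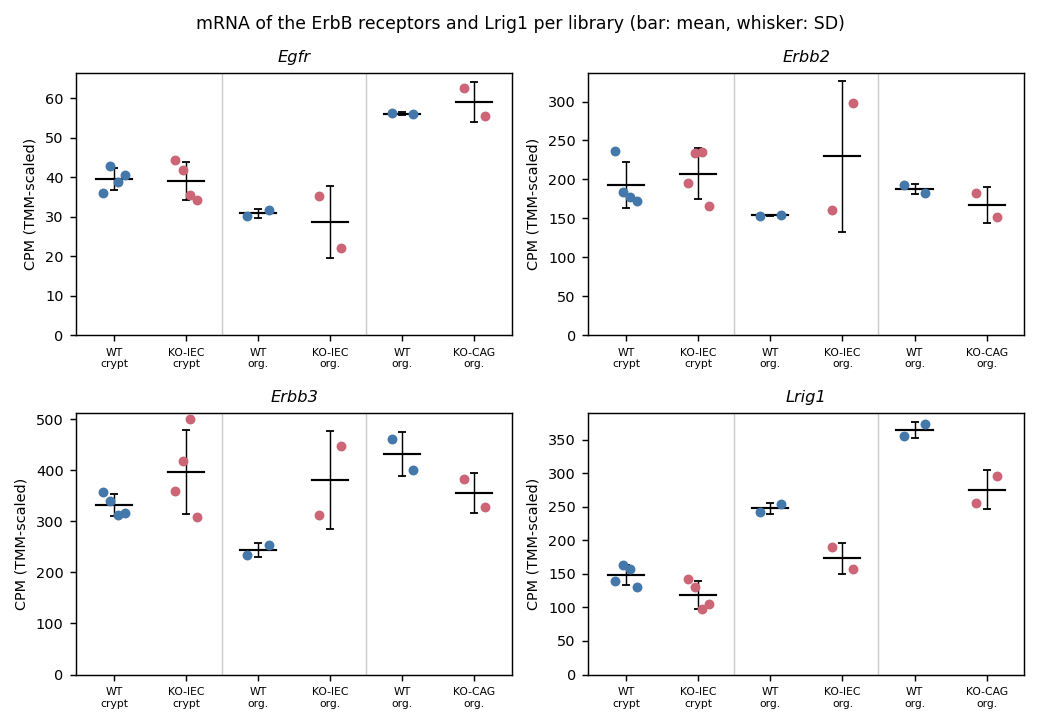
Points are TMM-scaled CPM of Egfr, Erbb2, Erbb3 and Lrig1 in each of the 16 libraries, WT in blue and KO in red, with the mean and SD of each group, and every axis starts at 0. Lrig1 is lower in both KO libraries of either organoid experiment, and Erbb2 reaches 298 CPM in 1 KO-IEC organoid library.

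In the KO-CAG organoids 5 of the 6 ligands were higher than in WT without overlap, and Areg and Ereg showed the largest differences of any member in the 3 experiments. Groups did not overlap for 7 of the 10 members, 5 higher and 2 lower, beside 69.7% of all 13598 genes tested. The members' median log2 fold change was 0.27, beside 0.0012 over all genes tested.

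Areg had 19.9 and 17.6 CPM in WT 1 and WT 2 and 135 and 104 CPM in KO 1 and KO 2. The lowest KO library lay far above the highest WT library, and the log2 fold change was 2.67 ± 0.14, 6.35-fold, with 2.46 to 2.84 when single libraries were left out. Ereg had 0.964 and 1.43 CPM in WT and 13.3 and 9.23 CPM in KO. The counts were 8 and 11 in WT and 96 in each KO library, and the log2 fold change was 3.22 ± 0.34, 9.29-fold. Ereg passed the filter on low counts through its KO libraries.

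Btc, the third gene of the chromosome 5 cluster, had 23.0 and 26.0 CPM in WT and 49.1 and 40.7 CPM in KO (log2 fold change 0.87 ± 0.13). It was thus higher in KO-CAG organoids and lower in KO-IEC organoids, as Areg was. Hbegf had 10.8 and 11.0 CPM in WT and 22.5 and 17.98 CPM in KO (0.88 ± 0.17). Tgfa had 24.5 and 27.3 CPM in WT and 37.3 and 34.3 CPM in KO (0.46 ± 0.12). Egf was the exception among the ligands, with 3.25 and 3.76 CPM in WT and 3.34 and 2.21 CPM in KO (-0.37 ± 0.34) and overlapping groups.

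Of the receptors, Erbb3 was lower in both KO-CAG libraries, and Egfr and Erbb2 overlapped with WT. Egfr had 56.4 and 56.0 CPM in WT and 62.7 and 55.6 CPM in KO (log2 fold change 0.07 ± 0.10). Erbb2 had 192.6 and 183.0 CPM in WT and 183.1 and 151.2 CPM in KO (-0.17 ± 0.10), an overlap of less than 1 CPM. Erbb3 had 462 and 401 CPM in WT and 383 and 328 CPM in KO (-0.28 ± 0.11), both KO libraries being lower. Lrig1 had 356 and 373 CPM in WT and 255 and 296 CPM in KO (-0.40 ± 0.10), again lower in both.

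Side by side, Tgfa was higher in KO and Egf and Lrig1 were lower in all 3 experiments by the sign of the log2 fold change. For Tgfa the values were 0.60, 0.57 and 0.46 in KO-IEC crypts, KO-IEC organoids and KO-CAG organoids, and the groups were apart in each. For Lrig1 they were -0.32, -0.52 and -0.40, with overlap in the crypts. For Egf they were -0.55 ± 0.47, -0.27 ± 0.48 and -0.37 ± 0.34, with overlap in the crypts and in the KO-CAG organoids. Egf had only 2 to 29 counts per library, so its shared sign is weak. Areg was 2.10, -0.83 and 2.67, and Btc 0.09, -0.68 and 0.87. Whether any of these differed between experiments was not tested. Erbb2 shares 9 bases with Mien1 and Lrig1 shares 144 bases with Slc25a26, each on the opposite strand. Opposite-strand RNA genes also overlap Ereg (Gm19610, 152 bases), Egfr (Egfros, 15272 bases), Tgfa, Egf and Erbb2, and had at most 7 counts in any library for Ereg, 5 for Egfr and Tgfa, 1 for Egf and 8 for Erbb2. Strand use in the counting is not given in the sources used here, so reads of these members and of their neighbours could not be told apart.

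**Figure D4:**
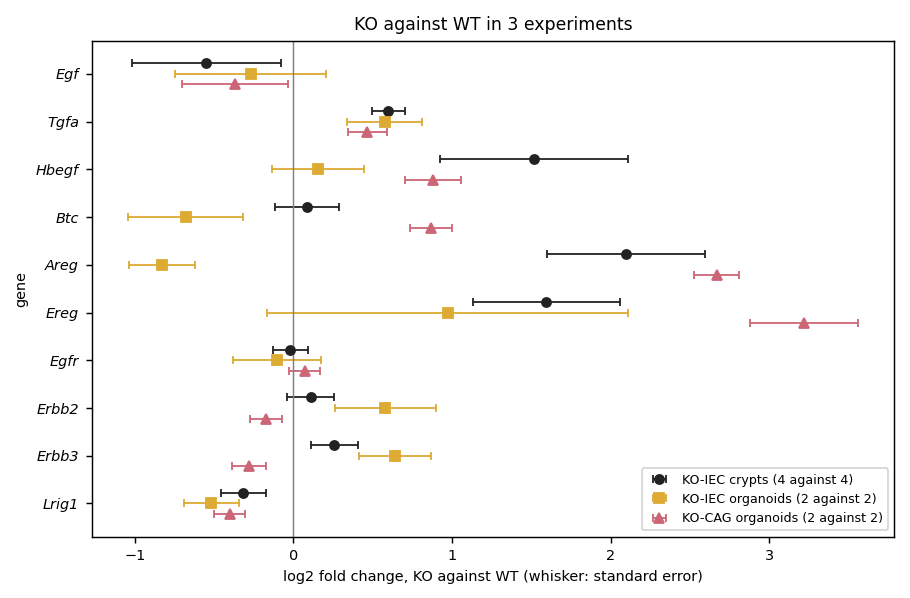
Points are log2 fold changes of KO against WT for the 10 genes, with their standard errors, in KO-IEC crypts (circles), KO-IEC organoids (squares) and KO-CAG organoids (triangles). Areg lies at 2.10 and 2.67 in crypts and KO-CAG organoids and at -0.83 in KO-IEC organoids, and Tgfa lies between 0.46 and 0.60 in each.

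Over the 16 libraries, with each experiment centred on its own mean, the genes whose log2 CPM followed Areg most closely were Bbox1 (Pearson's r = 0.952), Rab5c (0.950), Gpt (0.949), Micall1 (0.949) and Rmdn3 (0.946), out of 12477 genes. Bbox1 codes for an enzyme of carnitine synthesis and Gpt for an alanine aminotransferase. Of the members, Tgfa had the highest value at 0.686, followed by Ereg at 0.684, Hbegf at 0.657 and Btc at 0.582. Erbb3, Egfr and Erbb2 lay between -0.061 and 0.027, Egf at -0.500 and Lrig1 at -0.625. When the KO and WT groups were centred as well, these values were 0.53 for Tgfa, 0.06 for Ereg, 0.42 for Hbegf and 0.32 for Btc. They were then 0.29 for Erbb3, -0.20 for Egfr, 0.09 for Erbb2, -0.38 for Egf and -0.68 for Lrig1, the largest in size. The value of Ereg thus fell the most. The first set of values includes the KO and WT difference, which was known when the members were chosen. Ereg had 3 to 96 counts per library, so its low value cannot show that it varied apart from Areg within the groups. The points in the first set of values share the KO and WT groups and the 3 experiments, so these values describe the libraries and carry no test.

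The other genes of the pathway were taken as a list of 57 in 5 groups, none of them a member. They were tested with edgeR's quasi-likelihood test and Benjamini-Hochberg adjustment over all genes tested. The list was drawn up with earlier results of these data known, so its shares of called genes are only a description. In the KO-IEC crypts 8 of the 50 tested rose and 0 fell, beside 4.3% of all genes tested that rose and 2.66% that fell. The median log2 fold change of the list was 0.17. Feedback genes were among the 8: Dusp6, the ERK phosphatase, rose by 2.12 ± 0.34 (adjusted p = 0.0298), Errfi1, the EGFR kinase inhibitor MIG6, by 1.14 ± 0.16 (adjusted p = 0.0226), Epha2, an ephrin receptor induced by ERK, by 0.95 ± 0.18 (adjusted p = 0.0394), and Dusp4, another ERK phosphatase, by 0.76 ± 0.16 (adjusted p = 0.0413). The ubiquitin ligase gene Cbl rose by 0.68 ± 0.13 (adjusted p = 0.0397), Socs4 by 0.46 ± 0.09 (adjusted p = 0.0413), the kinase gene Map2k1 by 0.47 ± 0.11 (adjusted p = 0.0450) and the Ras exchange factor gene Sos2 by 0.46 ± 0.12 (adjusted p = 0.0495).

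Dusp6 had 14.6, 7.82, 7.68 and 20.2 CPM in WT 1 to WT 4 and 41.6, 48.6, 47.5 and 81.3 CPM in KO 1 to KO 4. The lowest KO value lay above the highest WT value. The difference was 1.64 within the libraries low in mt-Rnr1 and mt-Rnr2 and 2.00 within the middle ones. For Errfi1, at 13.0 to 20.7 CPM in WT and 33.1 to 43.2 in KO, it was 1.11 and 0.74, and for Epha2, at 26.6 to 46.5 and 63.1 to 83.1 CPM, 0.70 and 0.60. For Cbl and Sos2 it was 0.87 and 0.56 in the low libraries but 0.21 and 0.10 in the middle ones. Of the other ERK-induced genes that were tested, Etv4 (0.58 ± 0.57), Etv5 (0.01 ± 0.32) and Egr1 (0.77 ± 0.78) had adjusted p of 0.50, 0.98 and 0.51. Spry4 was at 0.241 to 2.11 CPM, and it was not tested.

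The number of pathway genes called in the crypts changed when single libraries were left out. The count was 0 without WT 1, without WT 2, without WT 3, without KO 2 or without KO 3, 9 without WT 4, 6 without KO 4 and 13 without KO 1. With these mt-Rnr1 and mt-Rnr2 classes in the model it was 1, and with DESeq2 it was 12. Dusp6 kept a log2 fold change of 1.80 to 2.47 over the 16 alternatives and was called in 10 of them, with adjusted p from 1.09e-07 to 0.11. Enterocyte markers summed to 1438 to 6277 CPM in WT and 5429 to 12868 in KO, stem cell markers to 1962 to 2974 and 1274 to 2043, and leukocyte markers to 19.9 to 97.4 and 38.5 to 281, and the part of these differences in the values of Areg, Ereg, Dusp6 and the other genes was not tested.

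In the KO-IEC organoids none of the 52 tested pathway genes was called by edgeR, beside 0% of all genes tested that rose and 0.00717% that fell, which was Cul4b alone. DESeq2 also called 0 of them. In edgeR 3 of the 52 had an unadjusted p under 0.05, beside 650 of all 13938 genes tested, a share near that of the list. These 3, named after their values were seen, were Phlda1 (-1.45 ± 0.34), Cbl (0.60 ± 0.19) and Ksr1 (0.81 ± 0.31), each with an adjusted p of 0.86. Dusp6 had 29.5 and 55.8 CPM in WT and 28.7 and 40.9 in KO (-0.29 ± 0.37, adjusted p = 0.87), and Errfi1 65.4 to 68.4 and 82.6 to 93.1 CPM (0.39 ± 0.16, adjusted p = 0.86). Etv4 had a log2 fold change of -1.34 ± 0.61, Etv5 of -0.88 ± 0.51, Spry4 of 0.39 ± 0.58 and Egr1 of 0.32 ± 0.27, with adjusted p of 0.86, 0.86, 0.89 and 0.86. The KO libraries differed from each other: stem cell markers summed to 2191 CPM in KO 1 and 598 in KO 2, against 3311 and 4702 in WT. Goblet cell markers summed to 6703 CPM in KO 2 and 1604 to 1869 in the other libraries, and enteroendocrine markers to 902 and 259 to 453. Paneth cell markers in KO 2, at 1820 CPM, lay within the range of the others. The part of these differences in the values of Tgfa, Btc, Erbb2 and Erbb3 was not tested. Leukocyte markers summed to less than 1 CPM in all 4 libraries.

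In the KO-CAG organoids 22 of the 52 tested pathway genes were called, 19 higher and 3 lower, beside 18.1% of all genes tested that rose and 13.4% that fell. The list's median log2 fold change was 0.19. The count was 5 with a 2-fold limit and 4 with all 16 libraries in one fit, where Epha2, Fosl1, Hras and Frmd8 were still called. The group of ERK feedback and ERK-induced genes held 11 of the 22: 10 of its 19 genes rose and 1 fell, with a group median of 0.66. Fosl1, an AP-1 subunit, rose by 2.00 ± 0.37 (1.33 to 1.43 CPM in WT, 4.33 to 6.95 in KO, adjusted p = 0.00290). Epha2 rose by 1.57 ± 0.12 (adjusted p = 2.44e-05), the AP-1 gene Fos by 1.41 ± 0.16 (adjusted p = 0.000189) and the phosphatase gene Dusp5 by 1.33 ± 0.18 (adjusted p = 0.000485). Dusp6 had 39.4 and 38.6 CPM in WT and 76.7 and 59.0 in KO and rose by 0.79 ± 0.13 (adjusted p = 0.00136). Egr1 rose by 0.39 ± 0.12 (adjusted p = 0.0270), and Ier3, Epha4, Junb and Ccnd1 rose by 0.66 to 0.92. Spred1, an inhibitor of Ras signalling, fell by 0.37 (adjusted p = 0.0128). Etv4 (-0.01 ± 0.10), Etv5 (-0.23 ± 0.14) and Spry4 (0.69 ± 0.31) had adjusted p of 0.95, 0.26 and 0.12.

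**Figure D5:**
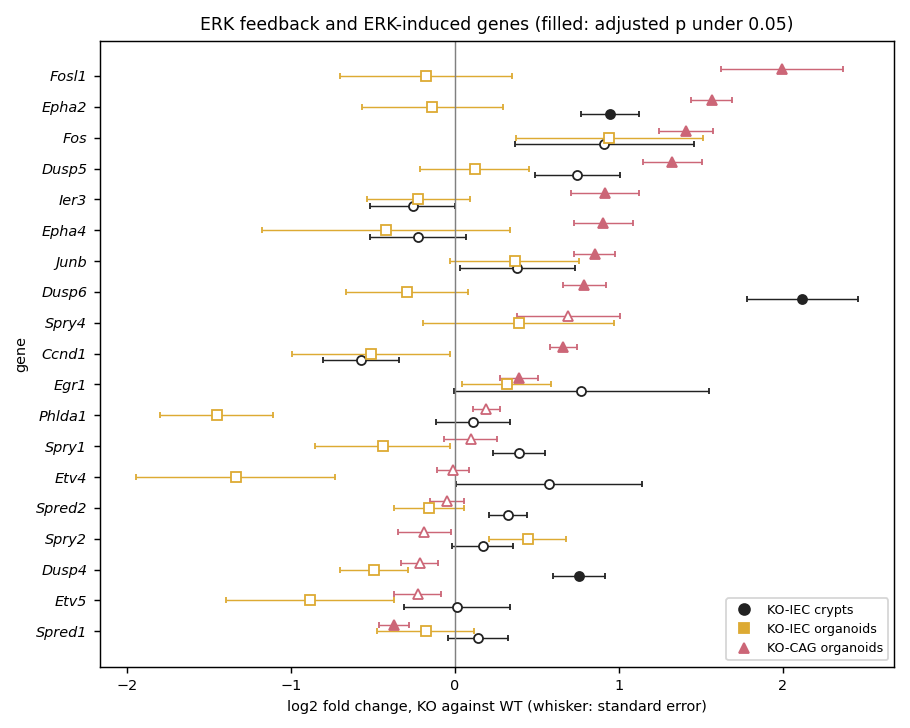
Points are log2 fold changes of KO against WT, with standard errors, for the 19 ERK feedback and ERK-induced genes in KO-IEC crypts (circles), KO-IEC organoids (squares) and KO-CAG organoids (triangles), filled where the adjusted p was under 0.05. Filled points number 3 in the crypts, 0 in the KO-IEC organoids and 11 in the KO-CAG organoids.

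Of the 6 genes for the release of the ligands, 3 rose in the KO-CAG organoids. Frmd8, which stabilises the iRhom-ADAM17 complex, rose by 1.11 ± 0.13 (46.0 to 49.0 CPM in WT, 88.8 to 118 in KO, adjusted p = 0.000213), and the iRhom genes Rhbdf2 and Rhbdf1 by 0.68 ± 0.11 and 0.30 ± 0.10 (adjusted p = 0.00124 and 0.0436). The ADAM protease genes were not called: Adam17 had -0.04 ± 0.11 and Adam10 -0.20 ± 0.08 (adjusted p = 0.79 and 0.10). Of the 9 receptor inhibitors and ubiquitin ligases, Errfi1 rose by 0.54 ± 0.10 (adjusted p = 0.00330) and Cblc by 0.39 ± 0.10 (adjusted p = 0.0159), while Lrig2 fell by 0.47 (adjusted p = 0.0290) and Cbl by 0.33 (adjusted p = 0.0189). In the relay from receptor to ERK, 4 of 17 rose, a share of 23.5% that was near the 18.1% of all genes: Hras by 0.69 ± 0.09, Map2k2 by 0.57 ± 0.08, Ksr1 by 0.54 ± 0.14 and Ptpn11 by 0.35 ± 0.08 (adjusted p from 0.000504 to 0.0130). Of the other ligand genes, Nrg4 was not called in any experiment, and Nrg1 stayed at or under 0.577 CPM in every library and was not tested.

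Of the 8 pathway genes called in the crypts and the 22 called in the KO-CAG organoids, 3 rose in both, namely Errfi1, Dusp6 and Epha2. They were 37.5% of the former and 13.6% of the latter, and 36.5% of all tested pathway genes rose in the KO-CAG organoids, so the shared share of the crypt genes was near that of the whole list. Cbl rose in the crypts and fell in the KO-CAG organoids. The KO-CAG libraries also differed in their cell type markers. All 6 goblet cell and all 6 enteroendocrine markers rose, as did 5 of 6 enterocyte and 5 of 6 Paneth cell markers, and 3 of 6 stem cell markers fell. Enterocyte markers summed to 3616 to 3965 CPM in WT and 8214 to 10256 in KO, and 4 of 6 pan-epithelial markers rose too. Their part in the values of the ligands was not tested. Leukocyte markers summed to 0.482 to 1.53 CPM in these 4 libraries, with Cd8a and Gzma at 0 in each.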

How the data were processed

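Library preparation and sequencing were done by Novogene. The submitters' processing notes name HISAT2 2.0.5 and featureCounts 1.5.0-p3. The genome build, annotation and strand use are not given in the sources used here. The authors deposited unnormalised read counts in 1 table per experiment, and a column of exonic gene length that was used for the levels per kb. Start and end positions of 95.2% to 98.3% of the genes matched GENCODE M21 on GRCm38, and of 9 of the 10 members, the start of Hbegf being 2 bases off. Groups and replicate numbers came from the sample labels. The methods call the replicates biological, but the labels do not tie libraries to animals, so p-values measure the spread between these libraries.

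Each experiment was fitted alone, KO against WT, without a block. Low counts were removed with filterByExpr (minimum count of 10), counts were scaled by TMM, and KO was tested by the quasi-likelihood method of edgeR 4.0.16 (R 4.3.3). Adjustment was by Benjamini-Hochberg over every gene that passed the filter. A gene was called at an adjusted p under 0.05. A standard error is the absolute log2 fold change over the root of its F statistic, and log2 CPM carry a prior count of 2. Differences within classes of summed mt-Rnr1 and mt-Rnr2 (bounds at 100 and 2000 CPM) are of mean log2 CPM. The same code was also run on simulated counts. These held no library that stood apart and no mt-Rnr1 and mt-Rnr2 classes, so that run does not bear on such differences. Alternatives were DESeq2's size factors, library size only, no filter, a minimum of 10 counts per library, the DESeq2 1.42.0 test, a replicate block, the class as a covariate, a 2-fold limit, all 16 libraries in one fit, and leaving out each library.

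The members, the pathway list and the marker lists were chosen with earlier results of these data known. Named were Cul4b, the 10 members, up to 4 called pathway genes per direction, group and experiment, 8 fixed pathway genes, genes overlapping a member, and the 5 genes most like Areg. Others named, among them the rest of the called pathway genes, were chosen after their values were seen. Same-numbered WT and KO libraries were not taken as pairs. Promoter sequences are from RefSeq (GRCm38.p6).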

Additional observations from a re-analysis of the deposited data

Results flagged for a closer look

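Among 74 groups of 4 crypt libraries, 6 held a library far from its group, with the gap to the nearest library given as a share of the group's range, where chance alone marks about 1 group in 20. In the KO-IEC crypts the gap was 0.948 for Hbegf, 0.893 for Btc and 0.854 for Errfi1, and the library apart was KO 3 in each case. In the WT crypts it was 0.978 for Map2k2 and 0.961 for Cblc, where WT 1 stood above the rest, and 0.836 for Frmd8, where WT 3 stood below. Leukocyte markers summed to 281 CPM in KO 3 and to 19.9 to 153 in the other crypt libraries, and Paneth cell markers to 1697 CPM against 6838 to 16937. Their part in these values was not tested.

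For 5 genes every KO library lay on one side of WT in one experiment and on the opposite side in another, and the difference between the experiments was not tested. The log2 fold change of Areg was higher by 2.92 in the KO-IEC crypts than in the KO-IEC organoids, and KO-IEC organoids minus KO-CAG organoids was -3.50. For Btc the KO-IEC organoids minus the KO-CAG organoids gave -1.55, and for Erbb3 0.92. For Cbl the KO-IEC crypts minus the KO-CAG organoids gave 1.00 and the KO-IEC organoids minus the KO-CAG organoids 0.93. For Dusp4 the KO-IEC crypts minus the KO-IEC organoids gave 1.25.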

How the results depend on the processing

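For the pathway genes no direction of a called gene turned under any alternative that was run. In the KO-IEC crypts the count of 8 called became 4 with library size only, 0 with the replicate block, 1 with the class of summed mt-Rnr1 and mt-Rnr2 in the model, 2 with a 2-fold limit and 0 to 13 when single libraries were left out, and in the remaining alternatives it stayed between 7 and 12. In the KO-IEC organoids the count of 0 became 2 with no filter and 0 to 15 when single libraries were left out. Leaving out an organoid library leaves 1 library in its arm, which is assumed to vary like the other arm. In the KO-CAG organoids the count of 22 became 5 with a 2-fold limit, 4 with all 16 libraries in one fit, and 16 to 23 otherwise. Over all genes the crypts had 934 calls, with 2 to 2468 when single libraries were left out, 4 with the replicate block, 2 with the class in the model, 2457 with DESeq2 and 1479 with no filter. The KO-IEC organoids had 1, with 223 with no filter, 26 with DESeq2 and 2322 without KO 1, and the KO-CAG organoids had 4278, with 2761 with DESeq2 and 2789 without WT 1. The cause of these changes was not tested. With library size only, 51.0% of the calls in the crypts were higher in KO, against 61.8% with TMM. Same-numbered crypt libraries had correlations of -0.04, 0.19, -0.40 and 0.43 between their deviations from the group means. The KO library most like WT 2 and WT 4 had the same number, and that most like WT 1 and WT 3 another. The organoids had 0.34 and 0.07, and with 2 libraries per arm both replicates give the same value. These values cannot decide whether the numbers mark pairs. In the KO-CAG organoids the replicate block left 22 calls. Of 375 values of the members under the alternatives, 18 moved by more than 1 SD of the replicates. The signs of Btc, Egfr and Erbb2 each turned in the crypts under at least 1 alternative, as did those of Hbegf, Ereg and Egfr in the KO-IEC organoids and that of Egfr in the KO-CAG organoids. Depth limits Egf and Ereg most, with 2 to 29 counts for Egf per library and 3 to 96 for Ereg.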
